A study of Homo sapiens with 6 samples.

Results

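The genes described here encode the machinery that packages messenger RNA (mRNA) for export and the nuclear pore through which it leaves the nucleus. They were taken by gene symbol from a fixed list of 50 names covering the THO and TREX complexes, export factors and nucleoporins, and all 50 were found among the 58735 genes of the table. By role, 24 were export factors and 26 were pore subunits. The study sequenced RNA from SW480, an established human line of colorectal adenocarcinoma cells, in 3 libraries labelled DDX39B overexpression and 3 control libraries labelled wild type. All cells were described as grown in Leibovitz's L-15 medium with 10% fetal bovine serum without added CO2. How DDX39B was introduced, whether a clone or a pool was used, what the control cells carried and whether the libraries came from separate cultures is not stated in the labels, so p-values measure the spread between these libraries, which may be technical.

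DDX39B is the RNA helicase at the heart of TREX (transcription-export). In this pathway the THO complex and DDX39B load adaptor proteins such as ALYREF onto spliced, capped mRNA, and the adaptors hand the mRNA to the export receptor NXF1-NXT1, which carries it through the pore. TREX-2 links active genes to the nuclear basket of the pore. The pore itself is built from Y-shaped scaffold complexes and an inner ring, a central channel of proteins rich in phenylalanine-glycine (FG) repeats, a nuclear basket and filaments on the cytoplasmic face.

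DDX39B itself ran opposite to its label. It measured 15.02, 13.9 and 14.03 FPKM (sequenced fragments scaled by gene length and library size) under the overexpression label and 39.3, 34.6 and 41.9 FPKM under the control label. The groups did not overlap, and DDX39B was 2.70-fold lower under the overexpression label (log2 fold change -1.37 with an SE of 0.079, limma adjusted p = 6.93e-06). A coding sequence without the native transcript ends cannot be told apart from the native mRNA in a gene-level FPKM. Both groups are named by their labels alone, as overexpression-labelled and control-labelled, and each direction below is that of the labels. The paralogue DDX39A, a helicase with an overlapping export role, measured 28.4 ± 0.81 against 35.98 ± 3.8 FPKM (SD, n = 3 each; limma adjusted p = 9.88e-03), a call lost when FPKM were recomputed on the sum of reads (adjusted p = 0.0569) and after quantile normalization (0.0683).

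Depth was even, at 16963075 to 17463697 reads per library as worked out from FPKM and gene length. The 2 groups differed across most of the transcriptome, with Pearson correlations of log2 values of 0.974 to 0.991 within and 0.676 to 0.685 between groups (across genes, which are not independent replicates). Control-labelled library 3 stood apart from its group, with a chi-square per gene of 16.5 and 32.9 against the other two, which differed from each other by 7.36. In the overexpression-labelled group this value was 2.09 to 2.43. Of 12 colon epithelial markers, 7 were tested and all 7 were higher under the overexpression label (summed level of the 12, 1972 to 1996 FPKM against 358 to 430 FPKM). The sum is mostly KRT8, KRT18 and KRT19. KRT19 stood at 500 ± 8.0 against 0.251 ± 0.21 FPKM, EPCAM at 171 ± 3.6 against 2.72 ± 0.67 FPKM and CDX2 at 4.80 ± 0.27 FPKM against 0 reads (SD, n = 3 each). KRT20 went the other way, with 6 against 80 reads, CDX1 had 0 reads in the 6 libraries, and LGALS4, CEACAM5 and CEACAM6 had at most 22 reads in a group. KRT19 and CDX2 were thus at or near 0 in the control-labelled libraries, and EPCAM was low there but detected, on 342 reads. All 6 libraries nevertheless carry the label SW480. Whether the groups are the same cells was not tested, and a difference of cells cannot be told apart from the labelled one in any fold below. Summed leukocyte markers (8 genes, 0 tested) stood at 1.03 to 1.51 against 0.795 to 1.20 FPKM, with CD3D and MS4A1 at 0 reads in all 6 libraries. Fibroblast markers (7 genes, 1 tested and lower) stood at 1.54 to 1.67 against 4.37 to 8.28 FPKM, and endothelial markers (6 genes, 1 tested and lower, ESAM) at 1.06 to 1.48 against 35.96 to 50.6 FPKM, nearly all of it ESAM, while VWF had 326 against 24 reads and KDR had 0 reads in all 6 libraries. The part of such differences between the groups in the results below was not tested. In bulk RNA, fewer cells of a kind and less RNA per cell cannot be told apart.

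Of the 50 genes, 48 reached a mean of 1 FPKM and were tested, and 15 rose and 20 fell past an adjusted p of 0.05 under the overexpression label. These 35 calls are 72.9% of the tested members, near the 76.8% called among all 13972 tested genes. Among all tested genes 37.5% were higher and 39.3% lower, against 31.3% and 41.7% of the members. On reads with voom, a scaling by the sum of reads, the members' split was 20 higher and 17 lower. With voom the median log2 fold change of all tested genes was 0.08, and their shares called are not given here. For 38 members (79.2%) all values of one group lay beyond those of the other, against 80.1% of all tested genes. Past the threshold and at least 1.5-fold, 4 members (8.33%) were higher, against 28.4% of all tested genes, and 14 (29.2%) were lower, against 29.4%. The median size of the log2 fold change, whatever its sign, was 0.35 over the members and 0.62 over all tested genes. Members were well expressed, with group means of 4.14 to 109 FPKM, and these comparisons were not matched for expression.

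**Figure D1:**
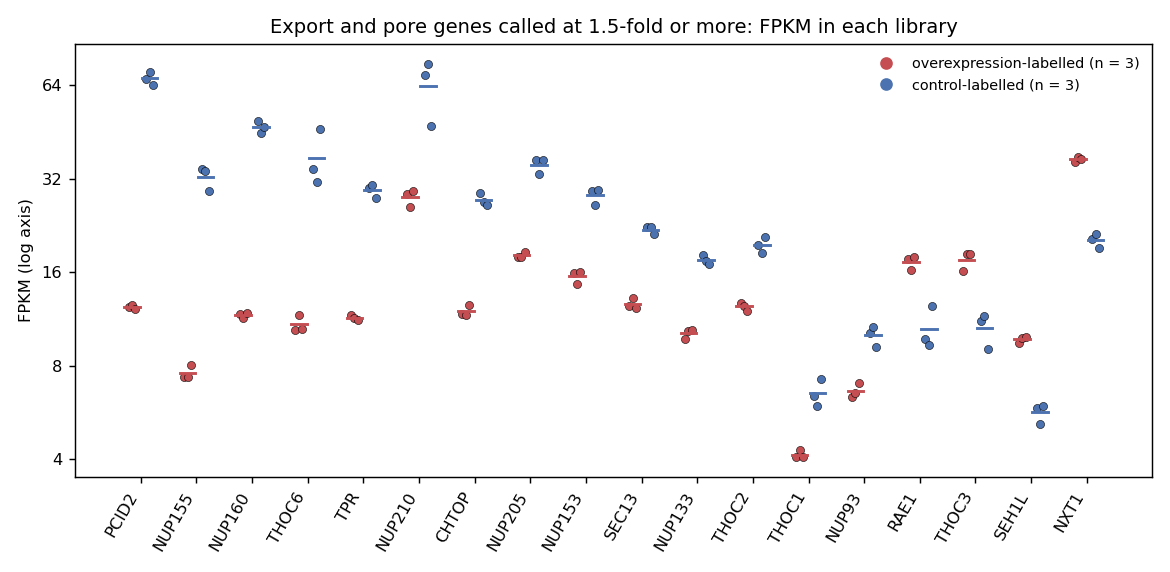
FPKM on a log axis in each of the 6 libraries for the 18 members past the threshold and at least 1.5-fold different; points are libraries, short bars are group means (n = 3 each). The groups do not overlap for any of the 18, and PCID2 at the left has 12.2 to 12.5 FPKM under the overexpression label and 64.1 to 70.6 FPKM under the control label.

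The THO core, the multisubunit complex that meets the nascent transcript, changed in both directions. Of its 6 subunits, 2 rose (33.3%) and 4 fell (66.7%), beside 37.5% and 39.3% of all tested genes. THOC6 (ENSG00000131652, chromosome 16, 3024027 to 3027755, plus strand, GRCh38), a repeat-domain subunit through which THO assembles into larger oligomers, measured 10.4, 11.7 and 10.5 FPKM under the overexpression label and 34.3, 31.2 and 46.2 FPKM under the control label. All 3 values of the first group lay far below the second, in which library 3 was highest. THOC6 was 3.42-fold lower (log2 fold change -1.67 with an SE of 0.14, limma adjusted p = 4.69e-05), and -1.51 without control-labelled library 3. Its promoter window is shown because THOC6 had the largest change within THO and because the gene lies back to back with HCFC1R1, described further below. The window covers chr16:3023785-3024084 of GRCh38.p14 on the plus strand, from RefSeq, and runs 5′ to 3′ from 250 bases before to 50 bases after the start. Here and in the other promoters, capitals mark matches to any of 8 short motifs given with the promoter results, on either strand.
THOC6: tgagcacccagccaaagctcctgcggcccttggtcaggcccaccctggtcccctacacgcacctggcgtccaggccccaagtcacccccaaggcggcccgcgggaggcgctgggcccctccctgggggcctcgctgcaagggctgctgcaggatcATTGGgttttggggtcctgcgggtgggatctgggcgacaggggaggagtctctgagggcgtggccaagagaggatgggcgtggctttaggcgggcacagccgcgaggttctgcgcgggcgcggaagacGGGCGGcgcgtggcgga

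THOC2 (ENSG00000125676, chromosome X, 123600561 to 123733056, minus strand), the large scaffold subunit on which DDX39B docks, measured 12.8, 12.5 and 12.1 FPKM under the overexpression label and 19.7, 18.4 and 20.8 FPKM under the control label. THOC1 (ENSG00000079134, chromosome 18, 214520 to 268050, minus strand), its partner in the core, measured 4.06, 4.28 and 4.07 FPKM against 6.40, 5.94 and 7.28 FPKM. Both were 1.58-fold lower with groups that did not overlap (log2 fold changes -0.62, SE 0.060, and -0.55, SE 0.079; limma adjusted p = 9.18e-05 and 6.39e-04). THOC5, which was reported as a contact for NXF1, fell by 0.21 on the log2 scale (SE 0.060, limma adjusted p = 0.0168). The call ended under 6 alternatives, among them FPKM on the sum of reads (adjusted p = 0.099), the replicate number as a block (0.0509) and each overexpression-labelled library left out in turn (0.0511 to 0.0668). THOC3 and THOC7 went the other way. THOC3 (ENSG00000051596, chromosome 5, 175917873 to 176034680, minus strand) measured 16.1, 18.3 and 18.4 FPKM under the overexpression label and 11.2, 11.6 and 9.03 FPKM under the control label, 1.66-fold higher (log2 fold change 0.69 with an SE of 0.10, limma adjusted p = 7.55e-04). THOC7 measured 25.8 ± 0.65 against 19.6 ± 1.3 FPKM (SD, n = 3 each; limma adjusted p = 1.24e-03). The genes for subunits of a single complex therefore stood in different proportions in the groups: THOC6 was the most abundant THO mRNA per exon-union length in the control-labelled libraries (37.2 FPKM) and lay below THOC7, THOC3 and THOC2 in the overexpression-labelled ones (10.9 FPKM).

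Adaptors and co-adaptors bridge DDX39B and NXF1. Of 7, 5 were tested, and 2 rose and 2 fell (40% each, beside 37.5% and 39.3% of all tested genes). CHTOP (ENSG00000160679, chromosome 1, 153633982 to 153646306, plus strand) encodes an arginine-rich adaptor that binds DDX39B and NXF1. It measured 11.8, 11.6 and 12.6 FPKM under the overexpression label and 28.7, 26.9 and 26.3 FPKM under the control label. It was 2.27-fold lower (log2 fold change -1.12 with an SE of 0.058, limma adjusted p = 4.24e-06). ALYREF, the canonical adaptor, measured 87.3 ± 2.4 against 80.8 ± 4.0 FPKM (SD, n = 3 each), with a log2 fold change of 0.11 (95% interval -0.02 to 0.24, limma adjusted p = 0.104). It passed, as higher, under 4 alternatives of scaling or weights at adjusted p-values of 0.0108 to 0.0361. ALYREF and ERH were the most abundant members of the whole set. ERH, a small conserved protein that binds nuclear RNA-processing factors, measured 109 ± 9.0 against 83.96 ± 4.1 FPKM and was called higher (log2 fold change 0.38 with an SE of 0.073, limma adjusted p = 2.83e-03). Of the exon bases of ERH, 25.8% are shared with SLC39A9 on the opposite strand, which did not pass (limma adjusted p = 0.69), and shared reads cannot be told apart without strand. FYTTD1, the adaptor also called UIF, rose from 12.5 ± 1.7 to 16.2 ± 0.22 FPKM (limma adjusted p = 0.0119). POLDIP3, an adaptor that also acts in translation, fell from 30.04 ± 3.3 to 21.5 ± 1.5 FPKM (limma adjusted p = 3.59e-03).

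SARNP and ZC3H11A, both TREX components that bind DDX39B, were too low to be tested. SARNP had 15 reads under the overexpression label and 18 under the control label, and ZC3H11A had 19 reads in each group. By the GENCODE release 29 annotation, 93.6% of the exon bases of ZC3H11A are also exon bases of ZBED6 on the same strand, and 27.2% of those of SARNP are also in AC023055.1. ZBED6 itself stood at 0.0628 ± 0.013 FPKM in the first group and 0.265 ± 0.014 FPKM in the second (SD, n = 3 each). How reads in shared exons were counted is not given in the sources used here, and the part of shared exons in these low values was not tested.

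NXT1 rose most of all members. NXT1 (ENSG00000132661, chromosome 20, 23350736 to 23354777, plus strand) encodes the small partner that NXF1 needs to bind FG repeats. It measured 36.2, 37.7 and 37.2 FPKM under the overexpression label and 20.4, 21.3 and 19.2 FPKM under the control label. The 2 groups were tight and apart, and NXT1 was 1.82-fold higher (log2 fold change 0.84 with an SE of 0.054, limma adjusted p = 1.17e-05). Its promoter, chr20:23350541-23350840 of GRCh38.p14 on the plus strand, from RefSeq, is shown as that of the member with the largest rise.
NXT1: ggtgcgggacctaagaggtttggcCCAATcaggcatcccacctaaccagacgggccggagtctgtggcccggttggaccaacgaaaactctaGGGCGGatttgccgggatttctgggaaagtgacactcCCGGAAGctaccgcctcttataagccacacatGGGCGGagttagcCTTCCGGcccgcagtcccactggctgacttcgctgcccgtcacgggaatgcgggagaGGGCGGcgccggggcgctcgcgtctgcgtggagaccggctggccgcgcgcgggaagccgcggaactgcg

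NXF1, the receptor for bulk mRNA, did not pass, although NXT1 did. It measured 15.8, 17.3 and 16.5 FPKM under the overexpression label and 11.2, 9.81 and 19.0 FPKM under the control label. Control-labelled library 3 lay above every other library and the other two controls below all, so the groups overlapped (log2 fold change 0.34, 95% interval -0.18 to 0.87, limma adjusted p = 0.192). Without control-labelled library 3 the log2 fold change was 0.61 with an SE of 0.071 (limma adjusted p = 4.09e-04), and with array weights it was 0.51 (8.28e-04). Those weights were 4.62 for control-labelled library 1 against 0.304 and 0.180 for libraries 2 and 3, so a pass under array weights, here and below, rests almost wholly on 1 control library. XPO1, the exportin for proteins, small nuclear RNAs and some mRNAs, measured 29.4 ± 0.45 against 26.03 ± 6.1 FPKM, with 31.8 FPKM in control-labelled library 2 and 19.7 FPKM in library 3. It did not pass (log2 fold change 0.19, 95% interval -0.19 to 0.57, limma adjusted p = 0.299). Without control-labelled library 2 it was 0.34 (adjusted p = 0.0433), and without library 3 it was 0.01 (adjusted p = 0.891).

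The nuclear cap-binding genes had small differences. NCBP2, which holds the cap itself, rose from 23.8 ± 1.5 to 29.01 ± 0.63 FPKM (SD, n = 3 each; log2 fold change 0.28, SE 0.060, limma adjusted p = 4.49e-03). Its partner NCBP1 had a log2 fold change of 0.02 (95% interval -0.27 to 0.31, limma adjusted p = 0.89), and NCBP3, an alternative cap-associated protein, -0.07 (95% interval -0.25 to 0.10, limma adjusted p = 0.372).

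TREX-2 held the largest difference of the 48 tested genes. PCID2 (ENSG00000126226, chromosome 13, 113177539 to 113208715, minus strand), the scaffold-binding subunit related to yeast Thp1, measured 12.4, 12.5 and 12.2 FPKM under the overexpression label and 67.2, 70.6 and 64.1 FPKM under the control label. It was 5.44-fold lower on 4135 against 20977 reads (log2 fold change -2.35 with an SE of 0.053, limma adjusted p = 1.14e-07). None of the other TREX-2 genes described here was called lower. MCM3AP, the scaffold also called GANP, rose from 11.5 ± 0.67 to 13.6 ± 0.12 FPKM (SD, n = 3 each; limma adjusted p = 9.13e-03), although its antisense gene MCM3AP-AS1, which covers 15.2% of its exon bases, fell (log2 fold change -0.67) and may share reads with it. ENY2, a subunit shared with the SAGA coactivator, measured 6.91 ± 0.0092 against 7.15 ± 0.64 FPKM (log2 fold change -0.04, 95% interval -0.21 to 0.13, limma adjusted p = 0.627). Among the related genes, 3 more TREX-2 subunits, named after their values were seen, were called higher: SEM1 at 14.8 ± 1.1 against 7.29 ± 0.090 FPKM (limma adjusted p = 1.90e-05), the centrin CETN2 at 19.02 ± 0.74 against 9.90 ± 2.2 FPKM (1.27e-03) and CETN3 at 4.46 ± 0.74 against 3.17 ± 0.74 FPKM (0.0486, with groups that overlap). The promoter of PCID2, chr13:113208620-113208919 of GRCh38.p14 on the minus strand, from RefSeq, is shown because PCID2 and CUL4A start within the same region on opposite strands.
PCID2: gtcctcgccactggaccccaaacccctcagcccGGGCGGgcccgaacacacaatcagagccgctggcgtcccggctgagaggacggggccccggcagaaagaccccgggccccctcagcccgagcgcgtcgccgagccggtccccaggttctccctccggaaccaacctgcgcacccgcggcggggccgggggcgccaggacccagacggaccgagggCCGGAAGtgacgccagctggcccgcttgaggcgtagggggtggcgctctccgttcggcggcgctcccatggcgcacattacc

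Of the export factors that act at the pore, RAE1 (ENSG00000101146, chromosome 20, 57351010 to 57379211, plus strand), which binds NUP98, measured 17.6, 16.3 and 17.9 FPKM under the overexpression label and 9.79, 9.34 and 12.5 FPKM under the control label. It was 1.64-fold higher (log2 fold change 0.67 with an SE of 0.11, limma adjusted p = 1.06e-03) with groups apart. GLE1, the activator of the helicase DDX19, measured 18.2 ± 0.61 against 16.4 ± 2.0 FPKM and did not pass (limma adjusted p = 0.166), but did, as higher, without control-labelled library 2 (adjusted p = 0.0135), with voom (0.0368) and with array weights (7.67e-03).

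**Figure D2:**
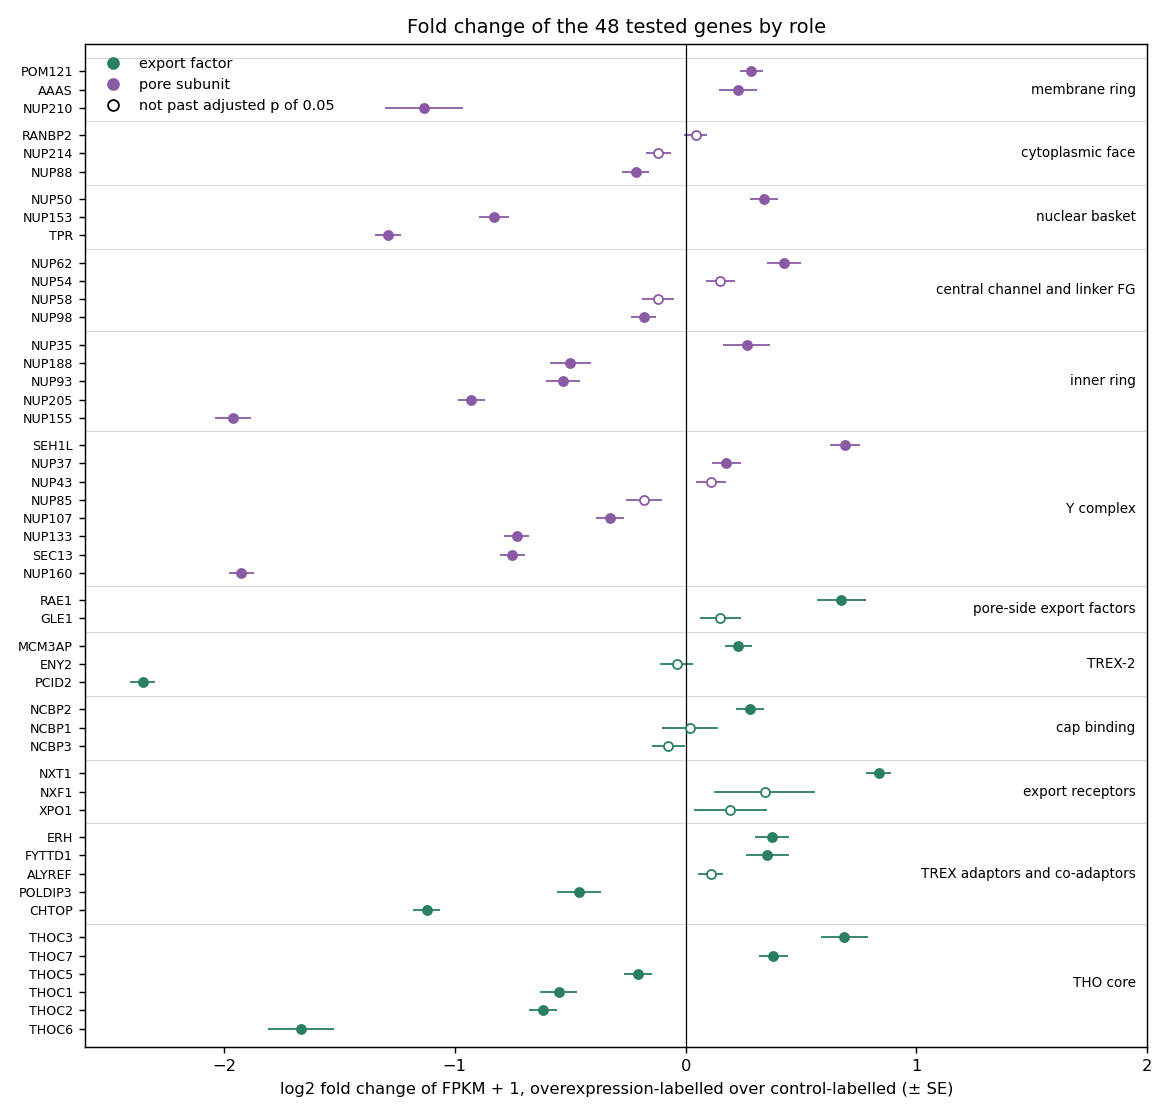
Log2 fold change with SE (n = 3 per group) of each of the 48 tested members, ordered by role; green points are export factors, purple points pore subunits, and open points did not pass an adjusted p of 0.05. Each of the THO core, Y complex and inner ring holds genes on both sides of 0, with PCID2 at -2.35 and NXT1 at 0.84 as the ends of the range.

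Among pore subunits, the Y complex, the main scaffold of the outer rings, had 2 genes that rose and 4 that fell of 8. These were 25% and 50% of its genes, beside 37.5% and 39.3% of all tested genes. NUP160 (ENSG00000030066, chromosome 11, 47778087 to 47848555, minus strand), at the junction of the arms of the Y, measured 11.7, 11.4 and 11.9 FPKM under the overexpression label and 49.2, 44.9 and 47.0 FPKM under the control label. It was 4.04-fold lower (log2 fold change -1.92 with an SE of 0.053, limma adjusted p = 2.57e-07) and was the most abundant Y gene under the control label, where NUP85 was so under the other. SEC13 (ENSG00000157020, chromosome 3, 10293131 to 10321178, minus strand), shared with the coat of secretory vesicles, measured 12.5, 13.2 and 12.3 FPKM against 22.3, 22.3 and 21.3 FPKM. NUP133 (ENSG00000069248, chromosome 1, 229440260 to 229508341, minus strand), at the tip of the stalk, measured 9.74, 10.4 and 10.4 FPKM against 18.2, 17.5 and 17.0 FPKM. They were 1.74-fold and 1.73-fold lower with groups apart (limma adjusted p = 1.77e-05 and 2.41e-05). NUP107, the stalk neighbour of NUP133, fell from 12.4 ± 0.77 to 9.64 ± 0.22 FPKM (SD, n = 3 each; limma adjusted p = 2.25e-03).

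SEH1L (ENSG00000085415, chromosome 18, 12947133 to 12987536, plus strand), a propeller protein shared with the GATOR2 complex of nutrient sensing, was the pore subunit with the largest rise. It measured 9.49, 9.80 and 9.94 FPKM under the overexpression label and 5.85, 5.201 and 5.96 FPKM under the control label, 1.72-fold higher (log2 fold change 0.69 with an SE of 0.064, limma adjusted p = 7.32e-05). NUP37, a peripheral propeller, passed at 10.1 ± 0.64 against 8.86 ± 0.28 FPKM (SD, n = 3 each; limma adjusted p = 0.0376), but the call was lost with the replicate block (adjusted p = 0.0898) and without any of 4 libraries, at adjusted p-values of 0.0589 to 0.138 (overexpression-labelled 1 and 3, control-labelled 1 and 3). NUP43 (log2 fold change 0.11, 95% interval -0.04 to 0.27, limma adjusted p = 0.155) and NUP85 (-0.18, adjusted p = 0.069) did not pass. NUP85 passed without control-labelled library 3 (-0.26, adjusted p = 2.45e-03) and with array weights (6.39e-04). The promoters of NUP160 (chr11:47848301-47848600 of GRCh38.p14, minus strand, the first of 2 listed by RefSeq) and SEH1L (chr18:12947761-12948060, plus strand) are shown as those of the Y genes that moved farthest each way.
NUP160: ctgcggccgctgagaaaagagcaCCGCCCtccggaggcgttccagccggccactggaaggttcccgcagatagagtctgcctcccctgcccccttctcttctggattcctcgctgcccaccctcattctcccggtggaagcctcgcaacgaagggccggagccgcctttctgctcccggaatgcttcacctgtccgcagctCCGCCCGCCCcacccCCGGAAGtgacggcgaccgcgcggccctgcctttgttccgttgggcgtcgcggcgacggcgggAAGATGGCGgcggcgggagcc
SEH1L: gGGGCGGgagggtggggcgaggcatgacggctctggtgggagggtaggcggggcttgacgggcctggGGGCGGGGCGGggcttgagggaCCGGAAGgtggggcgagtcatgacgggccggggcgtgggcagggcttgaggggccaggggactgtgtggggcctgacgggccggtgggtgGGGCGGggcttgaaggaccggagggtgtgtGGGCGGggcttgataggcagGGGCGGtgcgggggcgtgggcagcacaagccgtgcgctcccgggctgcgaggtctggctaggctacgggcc

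Of the 5 genes of the inner ring, which lines the pore between the outer rings, 4 were called lower and 1 higher. These were 80% and 20% of its genes, beside 39.3% and 37.5% of all tested genes. NUP155 (ENSG00000113569, chromosome 5, 37288137 to 37371181, minus strand), which connects the ring to the membrane, measured 7.38, 7.37 and 8.05 FPKM under the overexpression label and 34.5, 33.96 and 29.1 FPKM under the control label. It was 4.28-fold lower (log2 fold change -1.96 with an SE of 0.079, limma adjusted p = 1.29e-06). NUP205 (ENSG00000155561, chromosome 7, 135557919 to 135648757, plus strand), a large solenoid scaffold, measured 17.9, 17.9 and 18.6 FPKM against 36.8, 33.1 and 36.7 FPKM and was 1.96-fold lower (limma adjusted p = 1.04e-05). NUP93 (ENSG00000102900, chromosome 16, 56730105 to 56850286, plus strand), the linker that ties the ring to the channel, measured 6.35, 6.52 and 7.02 FPKM against 10.2, 10.7 and 9.20 FPKM and was 1.51-fold lower (limma adjusted p = 4.88e-04). NUP188, a scaffold related to NUP205, fell from 32.6 ± 3.8 to 22.6 ± 0.55 FPKM (SD, n = 3 each; limma adjusted p = 1.86e-03). The remaining gene, NUP35, had 5.41 FPKM in an overexpression-labelled and in a control-labelled library and sat at the threshold (log2 fold change 0.26, limma adjusted p = 0.0486). It ended under 10 of 15 alternatives, at adjusted p-values of 0.0543 to 0.147. The promoter of NUP155, chr5:37371057-37371356 of GRCh38.p14 on the minus strand, from RefSeq, is shown beside that of NUP160 as the other scaffold gene with a difference above 4-fold.
NUP155: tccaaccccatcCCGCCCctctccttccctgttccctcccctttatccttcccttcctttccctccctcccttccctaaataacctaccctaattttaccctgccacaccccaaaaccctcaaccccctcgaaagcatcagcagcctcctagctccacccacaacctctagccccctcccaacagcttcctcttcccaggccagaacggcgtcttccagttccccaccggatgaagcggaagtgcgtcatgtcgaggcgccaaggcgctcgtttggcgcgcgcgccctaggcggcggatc

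**Figure D3:**
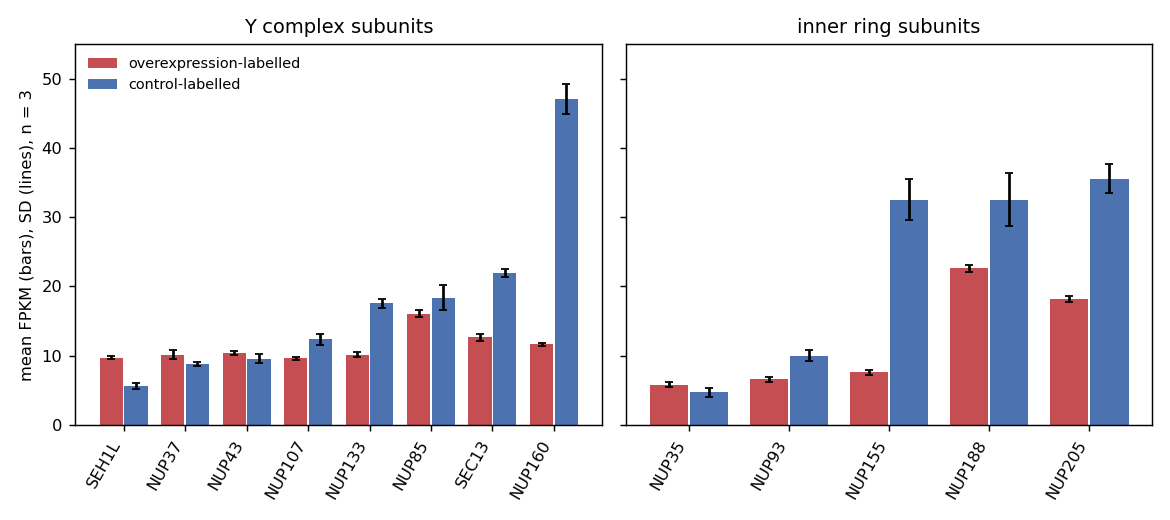
Mean FPKM with SD (n = 3 libraries per group) of the 8 Y complex and 5 inner ring genes, ordered by the control-labelled mean. Y complex means span 9.64 to 16.1 FPKM under the overexpression label and 5.67 to 47.03 FPKM under the control label, with NUP160 highest in the latter.

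Levels of subunit genes within a complex were set side by side per length, with a limit: the length is the union of all annotated exons of each of the 50 genes, not that of the transcript in use, which lowers the FPKM of different genes unequally. The order and span of levels hold on that scale only. Means of the 8 Y complex genes spanned 1.67-fold under the overexpression label and 8.30-fold under the control label. The upper end of the latter was NUP160 alone, at 47.03 FPKM, with SEC13 next at 21.97 FPKM. For the 5 inner ring genes the span was 3.86-fold and 7.52-fold. The THO core differed less in this respect, with spans of 6.24-fold and 6.86-fold. These spans describe mRNA and say nothing of the amounts of protein.

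Of the 4 genes of the central channel and its linkers, 1 rose and 1 fell (25% each, beside 37.5% and 39.3% of all tested genes). NUP62, the FG protein at the centre of the channel trimer, rose from 14.4 ± 1.3 to 19.7 ± 0.61 FPKM (SD, n = 3 each; log2 fold change 0.43, SE 0.074, limma adjusted p = 1.58e-03). On the opposite strand ATF5 shares 10.4% of the exon bases of NUP62, and ATF5 also rose (log2 fold change 2.78), so shared reads cannot be told apart without strand. The other two members of the trimer did not pass: NUP54 measured 10.05 ± 0.43 against 8.96 ± 0.51 FPKM (limma adjusted p = 0.066) and NUP58 13.6 ± 0.23 against 14.8 ± 1.2 FPKM (limma adjusted p = 0.152, but 0.0134 without control-labelled library 2 and 4.87e-03 with array weights). NUP98, whose transcript also encodes the Y subunit NUP96, fell by 0.18 on the log2 scale (limma adjusted p = 0.0201). This call ended under 3 other scalings (adjusted p = 0.195 to 0.269) and without overexpression-labelled library 2 (0.0761) or control-labelled library 1 (0.0676).

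In the nuclear basket, the filamentous cage where export complexes gather, the 3 genes parted. TPR (ENSG00000047410, chromosome 1, 186311652 to 186375693, minus strand), the coiled-coil protein of the basket's struts, measured 11.6, 11.4 and 11.2 FPKM under the overexpression label and 29.8, 30.6 and 27.7 FPKM under the control label. It was 2.57-fold lower (log2 fold change -1.29 with an SE of 0.055, limma adjusted p = 1.71e-06). NUP153 (ENSG00000124789, chromosome 6, 17615035 to 17706834, minus strand), which anchors TPR and docks TREX-2, measured 15.9, 14.6 and 16.04 FPKM against 29.2, 26.4 and 29.5 FPKM and was 1.83-fold lower (limma adjusted p = 3.23e-05). NUP50, a mobile basket protein that helps importin cargo release, rose from 8.99 ± 0.60 to 11.6 ± 0.22 FPKM (SD, n = 3 each; limma adjusted p = 1.95e-03).

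On the cytoplasmic face the 3 genes had small differences. RANBP2, the giant filament protein with SUMO ligase activity, measured 19.98 ± 0.086 against 19.4 ± 0.82 FPKM (SD, n = 3 each; log2 fold change 0.04, 95% interval -0.08 to 0.16, limma adjusted p = 0.451). It has near copies, the RGPD genes, with which it may share reads. NUP214, which with NUP88 holds the helicase DDX19, had a log2 fold change of -0.12 (95% interval -0.25 to 0.01, limma adjusted p = 0.0864). NUP88 fell by 0.22 (limma adjusted p = 0.0109), a call lost under 3 other scalings (adjusted p = 0.0631 to 0.0878).

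Among membrane-anchored subunits, NUP210 (ENSG00000132182, chromosome 3, 13316235 to 13420309, minus strand), a transmembrane protein of the lumenal ring whose level differs between cell types, measured 28.7, 25.9 and 29.3 FPKM under the overexpression label and 68.8, 75.1 and 47.2 FPKM under the control label. Control-labelled library 3 was the lowest of its group but above all of the other group. NUP210 was 2.28-fold lower (log2 fold change -1.13 with an SE of 0.17, limma adjusted p = 7.76e-04), and -1.33 without that library. POM121, a transmembrane anchor, rose from 9.40 ± 0.044 to 11.7 ± 0.37 FPKM (SD, n = 3 each; limma adjusted p = 1.70e-03). NSUN5P2, which covers 18.8% of its exon bases on the opposite strand, fell (log2 fold change -1.52) and may share reads with it. Its near copy POM121C, with which it may share reads, also rose, from 11.3 ± 0.42 to 18.1 ± 0.52 FPKM (limma adjusted p = 3.88e-05). AAAS, the propeller protein ALADIN, passed at 19.7 ± 1.0 against 16.7 ± 1.6 FPKM (limma adjusted p = 0.0394), but not with no filter on low values (0.0668) nor without overexpression-labelled library 1 (0.123) or 2 (0.113) or control-labelled library 1 (0.0539).

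Export factors and pore subunits were then set side by side. Of 22 tested export factors, 8 rose and 7 fell, and 3 were higher and 5 lower by at least 1.5-fold. Of 26 pore subunits, 7 rose and 13 fell, and 1 was higher and 9 lower by at least 1.5-fold. As shares, 36.4% of export factors and 26.9% of pore subunits were higher and 31.8% and 50% lower, beside 37.5% and 39.3% of all tested genes. At 1.5-fold, 13.6% and 3.85% were higher and 22.7% and 34.6% lower, beside 28.4% and 29.4%. The 7 higher pore subunits were 4 without overexpression-labelled library 1 and 5 with the replicate block. The median log2 fold change was 0.13 for export factors and -0.18 for pore subunits, beside -0.03 over all tested genes. When FPKM were recomputed on the sum of reads, pore subunits were 10 higher and 11 lower with a median of -0.08, and export factors 9 higher and 6 lower with a median of 0.23. Quantile normalization likewise gave 10 pore subunits higher and 11 lower, as did voom. The median over all tested genes was 0.06 on the sum of reads, -0.02 after quantile normalization and 0.08 with voom. The shares of all tested genes called at these scalings are not given here. The pore median stayed below 0 and the export median above 0 under each alternative run, but the export factors median log2 fold change fell to 0.0435 without control-labelled library 3 and to 0.0645 with RAE1 and GLE1 counted as pore subunits. Summed over genes, the 26 pore subunits measured 354 to 365 FPKM under the overexpression label and 490.5 to 547 FPKM under the control label, 1.46-fold lower, and 1.36-fold lower on the sum of reads. The 22 export factors measured 521 to 540 against 551 to 561 FPKM, and the direction of this small difference turned: 553 ± 7.2 against 541 ± 14 FPKM on the sum of reads, and 516 ± 10.0 against 489.5 ± 3.4 FPKM without PCID2 (SD, n = 3 each). No test of the difference between the classes was made.

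By part of the pore, the summed level was 1.90-fold lower for the inner ring, 1.73-fold lower for the basket, 1.56-fold lower for the Y complex and 1.51-fold lower for the membrane group. Single genes carried much of this. Without NUP160 the Y complex was 1.20-fold lower, without TPR the basket 1.38-fold, without NUP155 the inner ring 1.56-fold, and without NUP210 the membrane group was 1.20-fold higher. The sum was 67.1 ± 1.3 against 65.4 ± 2.5 FPKM for the channel and linker group and 42.7 ± 0.60 against 45.5 ± 1.2 FPKM for the cytoplasmic face (SD, n = 3 each). On the sum of reads the falls were smaller, at 1.76-fold for the inner ring and 1.61-fold for the basket. They were 1.45-fold for the Y complex and 1.41-fold for the membrane group. At that scaling the channel and linker group was 1.11-fold higher, at 70.2 ± 1.4 against 63.5 ± 2.1 FPKM. The cytoplasmic face turned direction, at 44.7 ± 0.62 against 44.1 ± 0.69 FPKM.

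Outside the list, 72 related transport genes were chosen by function, with earlier results of these data known. Of these 72, 67 were tested, and 19 rose and 37 fell, with a median log2 fold change of -0.31. Lower calls were 55.2% of them and higher calls 28.4%, beside the 39.3% and 37.5% of all tested genes. Each of 5 export helicases was called lower at the deposited scaling, DDX39B by the most. Of these, DDX39A and EIF4A3, the helicase of the exon junction complex (log2 fold change -0.17, limma adjusted p = 0.022), lost the call on the sum of reads and after quantile normalization, and EIF4A3 also under 4 other alternatives, at adjusted p-values of 0.0652 to 0.497 in all. Of 8 tested other pore proteins, 3 rose and 5 fell. AHCTF1 (ELYS), which seeds pore assembly on chromatin, was 3.45-fold lower at 8.14 ± 0.35 against 28.1 ± 2.0 FPKM (SD, n = 3 each; limma adjusted p = 1.34e-06). TMEM209, a nuclear envelope protein reported to bind NUP205, was 2.87-fold lower (limma adjusted p = 9.91e-06), and the SUMO protease gene SENP2 was 2.89-fold higher (limma adjusted p = 3.50e-06). Of 15 tested importins, 3 rose and 9 fell. TNPO1 (transportin), the importer of many RNA-binding proteins, measured 15.1, 15.3 and 15.3 FPKM under the overexpression label and 79.2, 63.3 and 91.7 FPKM under the control label (5.12-fold lower, limma adjusted p = 6.02e-06), and IPO9 was 2.67-fold lower. KPNA2, an importin alpha, went the other way at 142 ± 1.6 against 53.1 ± 13 FPKM (2.67-fold higher, limma adjusted p = 2.21e-04). Of 6 exportins, 1 rose and 4 fell, with XPOT, the transfer RNA exporter, 2.54-fold lower (limma adjusted p = 1.44e-05). RAN, the GTPase that sets the direction of transport, fell from 123 ± 7.5 to 94.4 ± 1.8 FPKM (limma adjusted p = 9.59e-04).

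Position along the chromosomes was a feature the list did not use. For each member, the tested genes within 500 kb of its bounds were collected. The median log2 fold change of the neighbours had the sign of the member for 31 of 48 members (64.6%), against 64.5% of 13745 tested genes with neighbours. Among the 18 members of at least 1.5-fold, which were picked by the size of their change, it had the same sign for 16 (88.9%), against 69.4% of 7913 tested genes called at 1.5-fold or more. The exceptions were THOC1 and THOC2, lower beside neighbours with medians of 0.39 and 0.25. Spearman's rho between a gene and its neighbours' median was 0.62 over the 48 members and 0.37 over all tested genes, given as a description, since the points share the same 6 libraries and neighbouring genes. Of the neighbours of NXT1, 7 of 7 rose, of those of RAE1 3 of 3, and of those of SEH1L 6 of 7. Of the neighbours of TPR, 5 of 5 fell, of those of NUP155 4 of 5, and of those of NUP133 5 of 6. Other loci ran against their member, among them those of NUP50, NUP37, POM121 and POLDIP3. NUP50 was called higher, and of its neighbours 2 rose and 6 fell. For NUP37 and for POM121, also higher, 1 rose and 4 fell. POLDIP3 was called lower beside 10 that rose and 5 that fell. Beside NUP210, 2 rose and 2 fell. Among all tested genes 37.5% were higher and 39.3% lower.

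**Figure D4:**
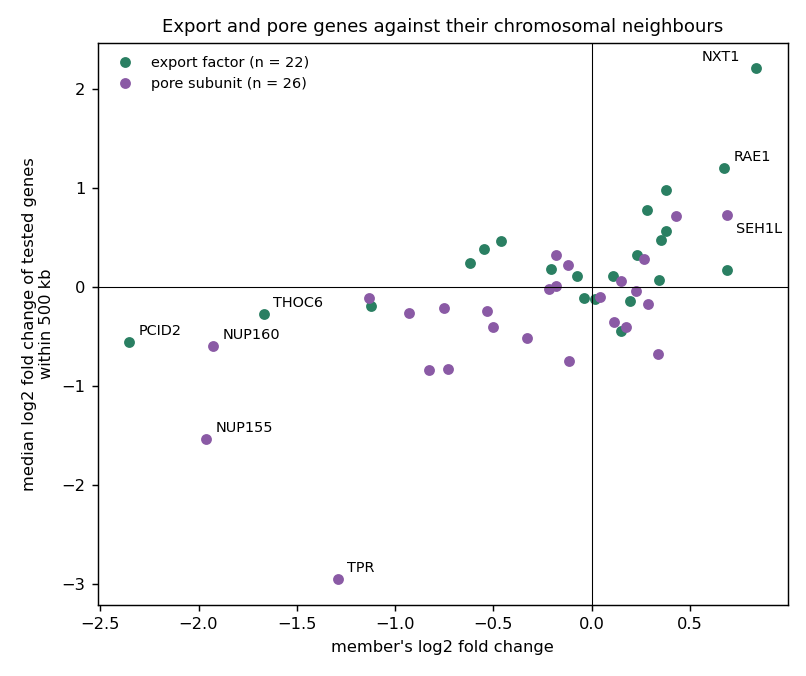
Each point is 1 of the 48 tested members: its own log2 fold change (x) and the median log2 fold change of the tested genes within 500 kb (y), green for 22 export factors and purple for 26 pore subunits. NXT1, RAE1 and SEH1L lie at the upper right, and TPR, NUP155, NUP160, PCID2 and THOC6 at the lower left.

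Several of the strongest changes had a partner next door, named here after their values were seen. Among all tested genes 39.3% were called lower, and the share of genes with such a partner was not counted. CUL4A, a cullin ubiquitin ligase gene that starts beside PCID2 on the other strand, measured 19.4 ± 0.42 against 66.3 ± 2.6 FPKM (SD, n = 3 each), 3.42-fold lower (limma adjusted p = 3.16e-07). Of the 18 tested neighbours of PCID2, 5 rose and 8 fell. HCFC1R1, back to back with THOC6, was 3.87-fold lower (limma adjusted p = 9.29e-05), while BICDL2, which overlaps the other end of THOC6, rose to 5.05 ± 0.37 from 0.0257 ± 0.013 FPKM, on 1270 against 6 reads. ODR4, 145 bases from TPR, was 2.62-fold lower (limma adjusted p = 3.94e-05). WDR70, 8031 bases from NUP155, and CPLANE1, 38709 bases away, were 3.01-fold and 5.17-fold lower, and FNBP4, 10644 bases from NUP160, was 2.19-fold lower. The exons of PCID2 and CUL4A overlap over 7% of the exon bases of PCID2, and those of THOC6 and HCFC1R1 over 13.98% of the bases of THOC6, so a part of their reads may be shared. The part of shared reads in these differences was not tested.

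RefSeq promoter windows of 300 bases (GRCh38.p14) were found for 45 of the 50 members, and the first listed window of each was searched on both strands. The ETS core CCGGAAG was in 19 of 45 (42.2%), against 20.1% of the windows of 9322 tested genes and 10.7% of all 27305 windows. It stood in the printed windows of NXT1, SEH1L, NUP160 and PCID2. The YY1 core AAGATGGCG was in 8 of 45 (17.8%), against 4.09% and 1.85%. It was found in 6 of 20 members that fell, NUP160 among them, and in 0 of 14 that rose. SARNP and ZC3H11A, which also hold it, are among the 45 but were not tested, unlike the genes behind the 4.09%. The SP1 box GGGCGG was in 27 of 45 (60%), against 72.2% and 44.6%, and in 17 of 20 members that fell and 5 of 14 that rose. The CCAAT box CCAAT was in 42.2% of members against 36.4% of tested genes, the NRF1 core GCGCATGC in 4 members (8.89% against 5.69%), the CRE TGACGTCA in 3 (6.67% against 3.36%), the E-box CACGTG in 3 (6.67% against 10.2%) and the TATA box TATAAA in 2 (4.44% against 5.08%). A match of the ETS core can share letters with one of the SP1 box or of the YY1 core. The ETS core was in 7 of 20 members that fell and 8 of 14 that rose, and the CCAAT box in 8 and 6. The NRF1 core was in 1 and 3, the CRE in 2 and 0, the E-box in 1 and 1 and the TATA box in 0 and 0. Splits by direction are not given for all tested genes, so they stand without a background. A match is a run of letters and not a measured binding site, and no test was made of these shares.

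Gene length, the union of annotated exons, was set beside the change without a test. Spearman's rho between log2 fold change and gene length was -0.28 over the 48 tested members and -0.09 over all tested genes. It was -0.37 over 22 export factors and -0.22 over 26 pore subunits, all given as a description. Of the 50 members, 18 shared no exon base with another annotated gene, and 7 shared at least 10% with another gene.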

How the data were processed

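RNA from 6 libraries labelled SW480 was measured by RNA sequencing. Per the labels' protocols, 1.3 µg of total RNA per library went into a SMARTer mRNA kit. The authors deposited FPKM per gene with gene length. Aligner, counter and strand setting: not given in the sources used here. A build of mm10 (mouse) is named per the submitters' processing notes, whereas all 58735 identifiers, positions and symbols equal those of human GENCODE release 29 (GRCh38). FPKM times length, divided by the smallest such product above 0 per library, gave whole reads for 100% of values (within 0.001). The denominator implied by the deposited FPKM was 1.04 to 1.05 times the sum of reads in overexpression-labelled libraries. In control-labelled libraries it was 0.958 to 0.995 times that sum.

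The main test was limma 3.58.1 (R 4.3.3) on log2(FPKM + 1), two-sided, with the prior variance fitted as a trend on the level. It covered the 13972 genes whose mean reached 1 FPKM, with Benjamini-Hochberg adjustment over all of them and a threshold of 0.05. Fold changes on this scale understate those of low genes; a fold in the text divides one mean FPKM by the other. The fit was tested on simulated data with the same spread in both groups and few genes changed. The deposited data differ in both respects, so that test does not measure the error of the calls made here. All 50 members could be named, with every library's value for those past the threshold and at least 1.5-fold different; of the related genes, up to 8 with the largest change and the most abundant. The members and lists were chosen with earlier results of these data known. The work on neighbours, shared exons, gene length, spans within complexes and promoters, and the promoter windows of tested genes as a background, were added after values were seen, as were class sums on the sum of reads or without 1 gene. The NRF1 motif was shortened to 8 letters after a longer form had been searched. Alternatives changed the pseudocount, filter, scaling, weights, block and libraries. Array weights used limma's gene-by-gene estimate, chosen after the default estimate had not converged on these data. Depth was 16963075 to 17463697 reads per library, and 3 reads equal 0.166 to 0.184 FPKM for a gene of 1 kb. NUP42 was matched by identifier to its older symbol.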

Additional observations from a re-analysis of the deposited data

How the results depend on the processing

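Of the 35 members called, 29 passed in the same direction under all 15 alternatives, including all 18 of at least 1.5-fold. The 6 others were THOC5, NUP35, NUP37, NUP88, NUP98 and AAAS, described above. THOC5 has no value with a minimum of 5 FPKM. Voom shifted the median log2 fold change of all tested genes by 0.11, and FPKM on the sum of reads shifted it by 0.09. The members median log2 fold change, -0.06, was 0.0376 with FPKM on the sum of reads and 0.0466 with voom. The export factors median log2 fold change, 0.13, was 0.23 and 0.25 under these, 0.20 after quantile normalization, 0.0645 with no filter on low values, and 0.0645 with RAE1 and GLE1 counted as pore subunits. Leaving out 1 library gave 0.0435 to 0.154, the lowest without control-labelled library 3. The pore subunits median log2 fold change, -0.18, was -0.0793 on the sum of reads, -0.0727 after quantile normalization and -0.0787 with voom. Pore subunits higher numbered 4 to 6 when 1 library was left out, 4 without overexpression-labelled library 1. The cause was not tested. Signs changed only for uncalled genes. NCBP1 was -0.0174 with array weights, -0.0054 without overexpression-labelled library 3 and -0.108 without control-labelled library 3 (0.133 at the other end). NCBP3 was 0.0202 on the sum of reads and 0.0267 with voom. ENY2 was 0.0551 on the sum of reads, 0.00766 after quantile normalization, 0.0665 with voom, and -0.0954 to 0.0180 when 1 library was left out. RANBP2 was -0.0124 with array weights. Same-numbered libraries did not deviate together (correlations of -0.022 to 0.0075), so no pairing by number was detected. Whether they were made together is not stated in the labels. With the replicate block 13 members were higher and 19 lower (15 and 20 without), export factors 8 and 6, pore subunits 5 and 13, related genes 17 and 35. Tested members had 953 to 26007 reads per group. The SD between libraries was below the counting error of the mean reads for 16 of 48 members under the overexpression label and 4 under the control label, so depth also limits the precision.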
